A study of Mus musculus with 16 samples.

Results

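The mitochondrial ribosomal proteins are 78 genes, 49 named for the large subunit (Mrpl) and 29 for the small subunit (Mrps), of 51912 genes in the count table. They were taken by symbol, leaving out 5 pseudogene symbols, and had to reach an expected count of 10 in at least 4 of the 16 libraries. All 78 did so, in all 16 libraries, and all 78 were among the 14920 genes tested. Each library came from the liver of 1 male mouse aged 13 weeks. The diet, either Control AA or Low Ile, began at 10 weeks of age and lasted 3 weeks; Low Ile is short of isoleucine, an essential branched-chain amino acid. Fasting for 16 h or refeeding preceded harvest. The design thus has 4 groups with 4 libraries each: control fasted, low isoleucine fasted, control refed and low isoleucine refed. No source used here gives the strain or the length of refeeding. The labels give each group its own number (1, 2, 7 or 9), which cannot be told apart from diet and feeding state.

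Mitochondria carry their own ribosome, which makes the few inner membrane proteins that mitochondrial DNA encodes. Its RNA comes from mitochondrial DNA, while all of its proteins are encoded in the nucleus, made in the cytosol and imported. The large subunit forms the peptide bond and releases the new protein at the inner membrane, and the small subunit reads the mRNA. Some of the proteins have counterparts in bacterial ribosomes, and others were added during the evolution of mitochondria.

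Total expected counts ran from 24368656 to 34002955 per library, and the lowest count of any member in any library was 101. Levels are given as TMM-normalised CPM, counts scaled to a common library size with a TMM factor for each library. Differences are log2 fold changes from edgeR's quasi-likelihood test, adjusted over all 14920 genes, with a threshold of 0.05. The 8 hepatocyte markers examined were all tested, and their summed level ran from 72565 to 125721 CPM. The 2 refed libraries numbered 4 stood at opposite ends for these genes: the control one had the lowest summed level of the members in its group and the low isoleucine one the highest. Counts, medians and list results that rest on the refed groups are therefore also given without them where they moved.

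Refeeding was accompanied by higher mRNA of both subunits on both diets, while no member passed the test between the diets. The 49 large subunit genes summed to 1047 ± 19.1 CPM in control fasted, 1090.3 ± 53.3 in low isoleucine fasted, 1278 ± 96.4 in control refed and 1347 ± 131 in refed livers on low isoleucine (SD, n = 4 each). The 29 small subunit genes summed to 499.6 ± 16.1, 519.6 ± 27.2, 626 ± 39.7 and 678 ± 69.5 CPM in the same order. Over all 78 genes the 8 fasted libraries lay between 1509 and 1688 CPM and the 8 refed libraries between 1712 and 2281 CPM, with no overlap. The lowest refed value was that of control refed library 4, at 1712 CPM, and the highest that of low isoleucine refed library 4, at 2281 CPM. The ratio of the large to the small sum was 2.10 ± 0.063, 2.10 ± 0.022, 2.04 ± 0.041 and 1.99 ± 0.056 in the same order of groups. The fasted ratios ran from 2.02 to 2.17 and the refed ratios from 1.91 to 2.08, so the feeding states overlapped in this ratio. Without both refed libraries numbered 4 the refed sums ran from 1799 to 2041 CPM and the refed ratios still from 1.91 to 2.08.

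**Figure D1:**
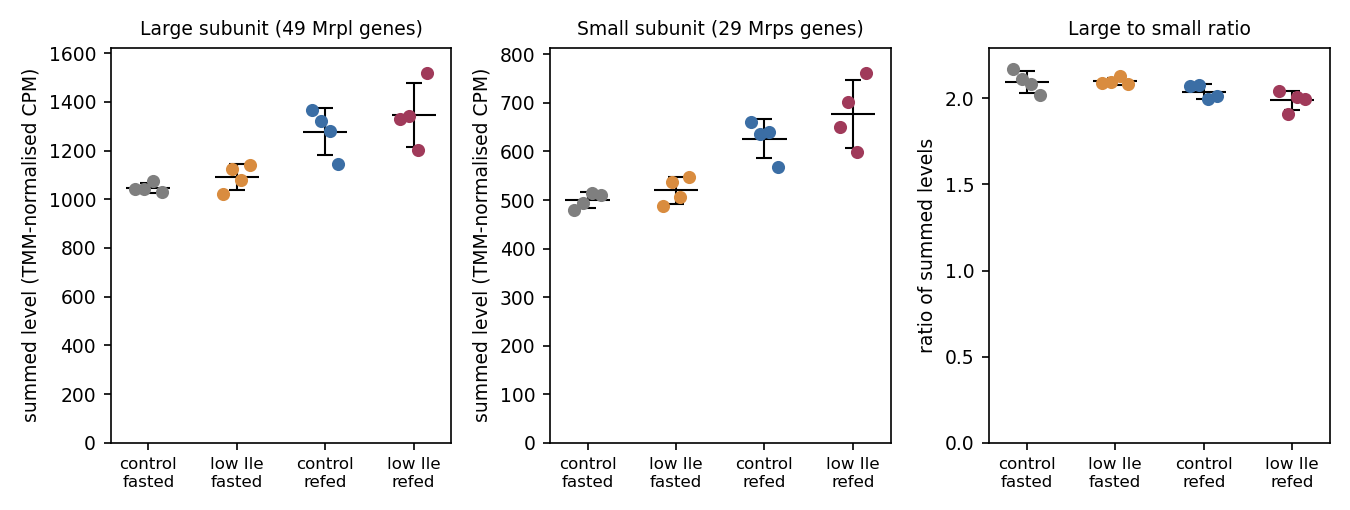
Summed level of the large and small subunit genes (TMM-normalised CPM) and the ratio of the sums, by group. Each point is 1 library, and horizontal lines and bars show mean ± SD (n = 4). Sums are higher in the refed groups, from 1047 and 1090.3 CPM to 1278 and 1347 CPM for the large subunit, while the ratio stays between 1.91 and 2.17.

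The first question was how fasted and refed livers differed on the control diet. Of the 78 members 28 rose and 0 fell, 17 in the large and 11 in the small subunit, while 8.91% of all tested genes rose and 8.2% fell. The median log2 fold change was 0.30 for the large and 0.30 for the small subunit, against 0.01 over all tested genes. Values were above 0 for 48 of 49 large and 27 of 29 small subunit genes, against 51.3% of all tested genes. For 32 members every refed library was above every fasted library, and for 0 every refed library was below; 9.5% of all tested genes were so ordered upward and 9.62% downward. Leaving out control fasted library 1 lowered the count from 28 to 17, and leaving out both refed libraries numbered 4 gave 33. Without those libraries the medians were 0.35 for the large and 0.34 for the small subunit, and 47 members had every refed library above every fasted one, against 14.2% of all tested genes.

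On the low isoleucine diet 34 members rose and 0 fell, 19 in the large and 15 in the small subunit, while 9.6% of all tested genes rose and 11.8% fell. The medians were 0.32 and 0.36 for the large and small subunits, against 0.02 over all tested genes. For 40 members every refed library was above every fasted one, against 11.6% of all tested genes, and for 0 every refed library was below, against 13.1%. Without both refed libraries numbered 4 the count was 27 and the medians were 0.28 and 0.30; 40 members were then fully apart, against 14.0% of all tested genes. In bulk tissue a change in the cells present and a change in RNA per cell cannot be told apart.

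The refeeding comparisons on the control and low isoleucine diets share no library. They had 24 members in common, which are 85.7% of the 28 that rose on the control diet and 70.6% of the 34 that rose with low isoleucine. Over all tested genes that rose, 782 were in common, or 58.8% and 54.6% of the respective calls. Values were above 0 on both diets for 74 of 78 members. For 17 members all 8 refed libraries were above all 8 fasted libraries, an order seen in 3.77% of all tested genes. Without both refed libraries numbered 4 the members that rose on both diets were 23, and 26 had all 6 refed libraries above all 8 fasted ones, against 5.70% of all tested genes. Among the members named by rule, calls then changed for Mrpl57 on the control diet (adjusted p = 0.106 with all libraries and 0.0341 without those) and for Mrpl44 (0.0326 and 0.0537) and Mrps28 (0.0178 and 0.0562) on the low isoleucine diet. Those 17 were Mrpl18, Mrpl19, Mrpl35, Mrpl36, Mrpl39, Mrpl45, Mrpl46, Mrpl47, Mrpl58, Mrps2, Mrps6, Mrps14, Mrps16, Mrps18b, Mrps18c, Mrps30 and Mrps36.

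**Figure D2:**
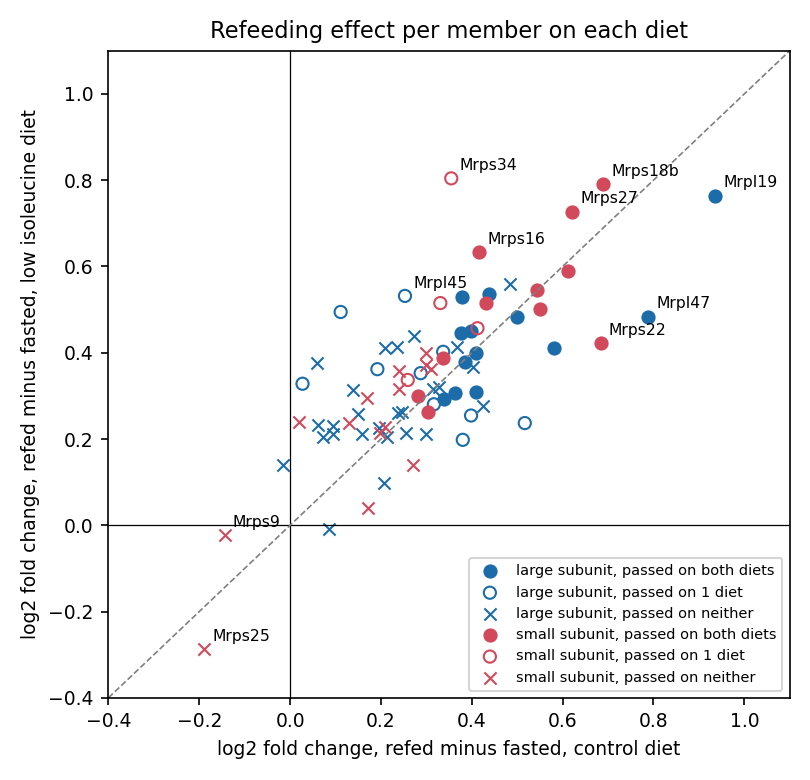
Log2 fold change (refed minus fasted) of each member on the control diet (x axis) and the low isoleucine diet (y axis), coloured by subunit and marked by whether the adjusted p was under 0.05; the dashed line marks equal values. Of 78 members 74 lie above 0 on both axes, with Mrpl19 (0.94 and 0.76) and Mrps18b (0.69 and 0.79) at the upper right and Mrps25 (-0.19 and -0.29) at the lower left.

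Among large subunit proteins with a bacterial counterpart, Mrpl19 had the largest refeeding effect on the control diet. Its gene lies at chr6:81957851-81965958 on the minus strand (GENCODE M21, GRCm38). Mrpl19 read 9.74, 10.3, 10.8 and 8.72 CPM in control and 10.98, 12.1, 9.54 and 11.1 CPM in low isoleucine livers after fasting. After refeeding it read 16.8, 18.1, 19.00 and 21.8 CPM in control and 17.9, 19.03, 19.4 and 17.9 CPM in low isoleucine livers. All 8 refed values were above all 8 fasted values, and the diets overlapped within each feeding state. The log2 fold change was 0.94 (SE 0.11, adjusted p = 3.85e-05) on the control diet and 0.76 (SE 0.11, adjusted p = 0.000127) with low isoleucine.

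Mrpl47, the mitochondrial counterpart of bacterial L29, showed the same order. The fasted livers had Mrpl47 at 13.5, 12.6, 15.1 and 12.1 CPM on the control diet and 16.9, 17.3, 14.00 and 17.1 CPM with low isoleucine. The refed livers had it at 19.4, 20.1, 27.5 and 24.98 CPM on the control diet and 23.5, 23.1, 21.9 and 22.8 CPM with low isoleucine. The low isoleucine fasted library 3 was the lowest of its group and lay within the range of the control fasted group. Refeeding gave a log2 fold change of 0.79 (SE 0.12, adjusted p = 0.000309) on the control diet and 0.48 (SE 0.12, adjusted p = 0.00837) with low isoleucine. Mrpl36, the counterpart of bacterial L36, averaged 11.1 ± 0.692, 12.5 ± 1.53, 16.5 ± 1.54 and 16.5 ± 1.72 CPM (SD, n = 4) in control fasted, low isoleucine fasted, control refed and low isoleucine refed livers. It rose by 0.58 (adjusted p = 0.00255) and 0.41 (adjusted p = 0.0169) on the log2 scale.

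The stalk of the large subunit recruits translation factors. Mrpl12, the L7/L12 protein of that stalk, which has also been reported to bind the mitochondrial RNA polymerase, had the highest mean level per kilobase of merged exon of all members, 40.2 CPM per kb. Mrpl12 read 58.1, 54.6, 42.9 and 62.8 CPM in control and 36.2, 66.2, 71.3 and 65.02 CPM in low isoleucine livers after fasting. After refeeding it read 82.3, 70.4, 45.2 and 44.5 CPM in control and 69.5, 72.1, 48.00 and 95.8 CPM in low isoleucine livers. The groups overlapped throughout, with a spread inside groups as wide as the distance between them. The log2 fold change was 0.15 (SE 0.25, adjusted p = 0.753) on the control diet and 0.26 (SE 0.25, adjusted p = 0.505) with low isoleucine. Mrpl11, at the base of the stalk, rose on the low isoleucine diet by 0.36 (adjusted p = 0.0248), and had a log2 fold change of 0.19 (adjusted p = 0.264) on the control diet. The former call was lost without low isoleucine fasted library 1 (adjusted p = 0.0725), without low isoleucine refed library 1 (0.0564) or 4 (0.0834) and without a filter on low counts (0.0728).

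Among the large subunit proteins found in mitochondria but not in bacterial ribosomes, Mrpl45 sits at the exit of the peptide tunnel, next to the inner membrane. The fasted livers had Mrpl45 at 22.9, 22.96, 24.8 and 20.3 CPM on the control diet and 20.1, 23.1, 18.03 and 20.1 CPM with low isoleucine. The refed livers had it at 26.1, 26.6, 28.5 and 27.2 CPM on the control diet and 29.95, 29.6, 27.3 and 30.7 CPM with low isoleucine. All refed values were above all fasted values, and the low isoleucine fasted group held the lowest of all 16. Refeeding gave a log2 fold change of 0.25 (SE 0.09, adjusted p = 0.0728) on the control diet and 0.53 (SE 0.09, adjusted p = 0.000743) with low isoleucine. Mrpl45 passed on the control diet by DESeq2 (0.27, adjusted p = 0.0304) and with library size alone as the scaling (0.37, adjusted p = 0.0224). Mrpl46 rose on both diets, by 0.44 (adjusted p = 0.0114) and 0.54 (adjusted p = 0.00223). Mrpl58, a peptidyl-tRNA hydrolase that frees stalled mitochondrial ribosomes, rose by 0.40 (adjusted p = 0.0252) and 0.45 (adjusted p = 0.0101). The control diet call of Mrpl58 was lost without control fasted library 1 (adjusted p = 0.0638) or 4 (0.0859), without control refed library 1 (0.0595) and without a filter on low counts (0.0654). Mrpl41 had values of 0.09 and 0.23 that did not pass (adjusted p = 0.743 and 0.302).

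The promoter window of Mrpl45 is shown since it holds 3 matches to the NRF1 motif, the most of any member. Windows run from 250 bases before to 50 bases after the start and come from RefSeq (GRCm38.p6). That of Mrpl45 is chr11:97315466-97315765, plus strand, printed 5′ to 3′ with the matches in capitals.
Mrpl45: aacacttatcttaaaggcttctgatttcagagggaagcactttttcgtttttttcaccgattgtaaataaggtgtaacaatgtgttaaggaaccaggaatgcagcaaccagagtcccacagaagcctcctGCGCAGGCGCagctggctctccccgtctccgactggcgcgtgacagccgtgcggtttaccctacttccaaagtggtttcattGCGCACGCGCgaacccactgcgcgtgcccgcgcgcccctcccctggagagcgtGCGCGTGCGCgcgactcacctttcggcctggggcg

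In the small subunit, Mrps18b, 1 of 3 mitochondrial relatives of bacterial S18, had the largest refeeding effect on the control diet. Its gene lies at chr17:35910379-35916389 on the minus strand. Mrps18b read 31.9, 32.6, 36.4 and 34.7 CPM in control and 30.4, 41.6, 32.3 and 36.7 CPM in low isoleucine livers after fasting. After refeeding it read 53.3, 51.2, 64.4 and 49.8 CPM in control and 56.96, 68.7, 51.4 and 66.97 CPM in low isoleucine livers. All 8 refed values were above all 8 fasted values. Refeeding gave a log2 fold change of 0.69 (SE 0.12, adjusted p = 0.00106) on the control diet and 0.79 (SE 0.12, adjusted p = 0.000267) with low isoleucine. Its relatives Mrps18a, which sits in the large subunit, and Mrps18c had values of 0.20 and 0.24 on the control diet and 0.21 and 0.32 on the low isoleucine diet, and neither passed. The lowest adjusted p of these 4 values was 0.0681, that of Mrps18c on the low isoleucine diet. Mrps18c passed there with upper-quartile scaling (adjusted p = 0.0467), with library size alone (0.0164) and by DESeq2 (0.0471), and on the control diet with library size alone (0.0498).

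Mrps22 and Mrps27 are small subunit proteins without a bacterial counterpart, and Mrps27 belongs to the pentatricopeptide repeat family of RNA-binding proteins. The fasted livers had Mrps22 at 12.1, 11.7, 13.6 and 11.7 CPM on the control diet and 16.1, 14.7, 13.2 and 14.1 CPM with low isoleucine. The refed livers had it at 19.2, 15.9, 23.4 and 20.6 CPM on the control diet and 19.00, 19.5, 21.01 and 18.4 CPM with low isoleucine. For Mrps22 the control refed library 2, at 15.9 CPM, lay below 1 low isoleucine fasted library, and the feeding states were apart within each diet. The log2 fold change of Mrps22 was 0.68 (SE 0.12, adjusted p = 0.000741) on the control diet and 0.42 (SE 0.11, adjusted p = 0.0145) with low isoleucine. Mrps27 read 13.3, 18.02, 16.1 and 18.4 CPM in control and 13.7, 16.96, 18.2 and 16.99 CPM in low isoleucine livers after fasting. After refeeding it read 31.6, 26.9, 25.8 and 16.99 CPM in control and 22.8, 31.3, 24.2 and 30.6 CPM in low isoleucine livers. For Mrps27 the control refed library 4, at 16.99 CPM, lay among the fasted values, and the other refed values were above them. The log2 fold change of Mrps27 was 0.62 (SE 0.17, adjusted p = 0.0189) on the control diet and 0.73 (SE 0.17, adjusted p = 0.00582) with low isoleucine. The control diet call of Mrps27 was lost without control fasted library 1 (adjusted p = 0.0681), without control refed library 1 (0.0634) and with only the compared groups in the fit (0.0549).

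The promoter windows of Mrps18b, Mrps22 and Mrps27 are shown since these genes had the largest refeeding effects of the small subunit on the control diet and each window holds the ETS motif, the element bound by GABP. Those of Mrps18b (chr17:35916391-35916690) and Mrps22 (chr9:98601630-98601929) are on the minus strand, and that of Mrps27 (chr13:99344536-99344835) on the plus strand. Capitals mark CCGGAAG or its reverse complement, CTTCCGG, and in Mrps27 also the YY1 motif.
Mrps18b: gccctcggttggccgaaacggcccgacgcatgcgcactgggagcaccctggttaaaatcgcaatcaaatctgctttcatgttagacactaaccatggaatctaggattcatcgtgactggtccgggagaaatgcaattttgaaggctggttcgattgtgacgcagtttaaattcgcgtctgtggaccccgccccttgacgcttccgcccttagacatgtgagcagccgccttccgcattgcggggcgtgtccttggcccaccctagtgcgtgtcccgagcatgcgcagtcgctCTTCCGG
Mrps22: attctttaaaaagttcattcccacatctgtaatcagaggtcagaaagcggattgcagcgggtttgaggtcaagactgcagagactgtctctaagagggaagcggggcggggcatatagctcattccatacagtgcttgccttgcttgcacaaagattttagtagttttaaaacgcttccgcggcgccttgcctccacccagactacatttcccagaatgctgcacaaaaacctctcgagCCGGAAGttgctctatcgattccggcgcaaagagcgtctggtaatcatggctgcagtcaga
Mrps27: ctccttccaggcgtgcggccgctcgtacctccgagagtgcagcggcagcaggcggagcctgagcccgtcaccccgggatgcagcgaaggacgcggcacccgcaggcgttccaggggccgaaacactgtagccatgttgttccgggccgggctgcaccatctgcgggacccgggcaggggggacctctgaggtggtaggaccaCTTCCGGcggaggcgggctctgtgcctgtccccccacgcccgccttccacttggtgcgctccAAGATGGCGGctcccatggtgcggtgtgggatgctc

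Of the 78 members 69 had a promoter window. The windows missing from the table were those of Mrpl4, Mrpl13, Mrpl15, Mrpl19, Mrpl38, Mrpl54, Mrps28, Mrps34 and Mrps35. A gene was counted where any of its windows held the motif. The ETS motif CCGGAAG, searched on both strands, was found in 26 members, or 37.7%, against 19.1% of tested genes and 9.93% of all genes with a window. The NRF1 motif, on both strands, was found in 13 members, or 18.8%, against 10.9% of tested genes and 5.19% of all genes with a window. The YY1 motif was found in 5 members, or 7.25%, against 2.28% of tested genes and 0.995% of all genes with a window. With any base allowed at its position 3, a form tried after these counts were known, it was found in 7 members, or 10.1%, against 3.60% of tested genes. The sequence TATAAA was found in 5 members, or 7.25%, against 9.47% of tested genes and 15.7% of all genes with a window. Among members that rose on both diets, 22 had a window, of which 8 held the ETS and 2 the NRF1 motif. Among members that passed on neither diet, 36 had a window, of which 15 held the ETS and 8 the NRF1 motif. A match describes letters in these windows and does not show binding.

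Mrps34, a small subunit protein without a bacterial counterpart, had the largest refeeding effect on the low isoleucine diet. The fasted livers had Mrps34 at 14.00, 13.9, 12.7 and 15.3 CPM on the control diet and 9.25, 13.7, 14.8 and 17.4 CPM with low isoleucine. The refed livers had it at 21.03, 20.3, 15.05 and 15.3 CPM on the control diet and 21.9, 24.2, 16.4 and 33.8 CPM with low isoleucine. The low isoleucine refed library 4 was the highest of all 16, and library 3 of that group lay below the highest fasted value. The log2 fold change was 0.35 (SE 0.20, adjusted p = 0.272) on the control diet and 0.80 (SE 0.20, adjusted p = 0.00987) with low isoleucine. Mrps2, the counterpart of bacterial S2, averaged 30.5 ± 2.30, 32.7 ± 2.56, 44.6 ± 4.18 and 46.3 ± 4.11 CPM in control fasted, low isoleucine fasted, control refed and low isoleucine refed livers. It rose by 0.55 (adjusted p = 0.00126) and 0.50 (adjusted p = 0.00185). Mrps6, the counterpart of bacterial S6, rose by 0.61 (adjusted p = 0.0116) and 0.59 (adjusted p = 0.0111), and Mrps16, the counterpart of S16, by 0.42 (adjusted p = 0.0154) and 0.63 (adjusted p = 0.00071).

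Mrps30, named for the small subunit but found in the large one, rose by 0.54 (adjusted p = 0.00826) and 0.55 (adjusted p = 0.00614). Mrps35, a mitochondria-specific protein, rose by 0.34 (adjusted p = 0.0438) and 0.39 (adjusted p = 0.0182). The control diet call of Mrps35 was lost in 10 of 16 fits that left out 1 library (adjusted p up to 0.146) and under 4 other settings (up to 0.109), and its low isoleucine diet call without low isoleucine fasted library 3 (0.0565) or refed library 2 (0.0581) or 4 (0.0521). Mrps12, the counterpart of S12 at the decoding centre, had values of 0.31 and 0.36 and did not pass (adjusted p = 0.276 and 0.168). Mrps36, now known as a subunit of 2-oxoglutarate dehydrogenase and not of the ribosome, rose by 0.43 (adjusted p = 0.0336) and 0.52 (adjusted p = 0.0103). Expected counts can share reads between Mrps36 and its pseudogene copies, of which 2 had counts. Members with values below 0 were few: Mrps25 (-0.19 and -0.29) and Mrps9 (-0.14 and -0.02) on the control and low isoleucine diets, Mrpl28 (-0.01) on the control diet and Mrpl17 (-0.01) on the low isoleucine diet, none of which passed.

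**Figure D3:**
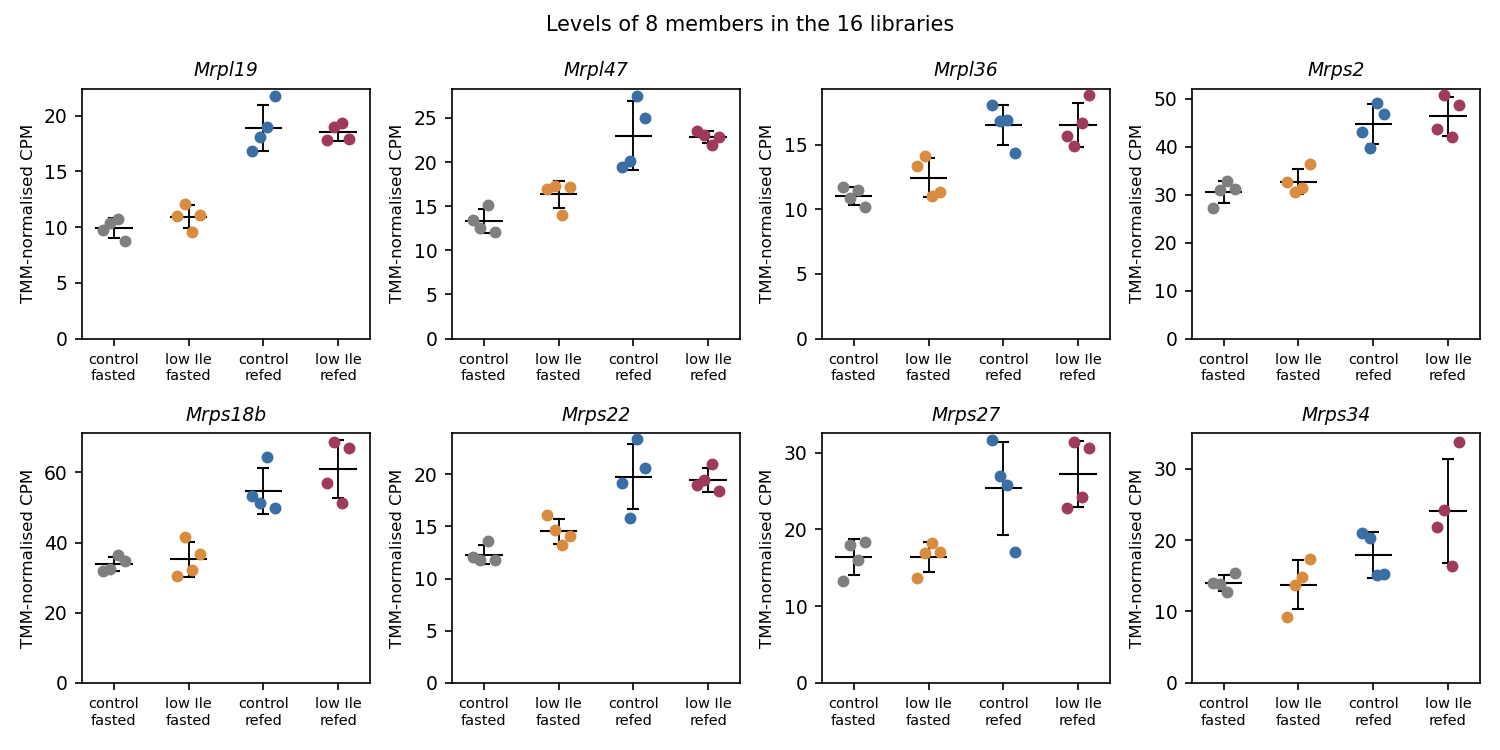
TMM-normalised CPM of 8 members in the 16 libraries, by group. Points are libraries, and horizontal lines and bars show mean ± SD (n = 4); for Mrpl19, Mrpl47, Mrpl36, Mrps2 and Mrps18b all refed points lie above all fasted points, while for Mrps34 the low isoleucine refed points spread from 16.4 to 33.8 CPM.

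The members were also sorted by origin, and no difference between the classes was tested. Of 46 genes with a bacterial counterpart 16 rose on the control diet (median 0.30) and 20 with low isoleucine (median 0.32). Of 31 mitochondria-specific genes 11 rose on the control diet (median 0.31) and 13 with low isoleucine (median 0.36). Mrps18a and Mrps18b, though relatives of bacterial S18, were counted among these 31. Those counts are 34.8% and 43.5% of the genes with a bacterial counterpart and 35.5% and 41.9% of the mitochondria-specific genes. Placing Mrps18a and Mrps30 in the large subunit and leaving out Mrps36, an assignment chosen after seeing the data, gave 18 of 51 large and 9 of 26 small subunit genes on the control diet, and 20 of 51 and 13 of 26 on the low isoleucine diet.

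The second question was whether diet changed these mRNAs. In fasted livers 0 of 78 members passed by edgeR, DESeq2 or limma-voom, where 0.771% of all tested genes passed by edgeR. At an unadjusted p under 0.05 there were 3 members, against 10.8% of all tested genes. The medians (low isoleucine minus control) were 0.08 for the large and 0.06 for the small subunit, against 0.01 over all tested genes, with 55 of 78 values above 0. Leaving out 1 library moved these medians to between 0.04 and 0.12 for the large and 0.04 and 0.11 for the small subunit, the lower ends without low isoleucine fasted library 2 and the upper ends without library 1 of that group. The members with the smallest p were Mrpl21 and Mrpl47 (adjusted p = 0.357 for each) and Mrpl15 (adjusted p = 0.442), with log2 fold changes of 0.30, 0.30 and 0.19. Mrpl21, the counterpart of bacterial L21, read 11.5, 11.4, 10.4 and 11.96 CPM in control and 12.5, 14.3, 13.9 and 14.8 CPM in low isoleucine fasted livers. It was the 1 member with every low isoleucine fasted value above every control fasted value, and Mrpl44 was the 1 member in the opposite order, against 3.67% and 4.4% of all tested genes. The bounds of 95% normal intervals ran from -0.50 (Mrpl14) to 0.82 (Mrpl55), and 67 of 78 intervals lay within 0.5 of 0.

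In refed livers 0 of 78 members passed by any of the same methods, where 0.174% of all tested genes passed by edgeR. At an unadjusted p under 0.05 there was 1 member, against 9.76% of all tested genes. The medians were 0.10 for the large and 0.09 for the small subunit, against -0.01 over all tested genes, with 64 of 78 values above 0. Without both refed libraries numbered 4 these medians became -0.02 and 0.01. Leaving out 1 library gave 0.03 to 0.18 for the large and 0.04 to 0.16 for the small subunit, the lower ends without control refed library 4 and the upper ends without low isoleucine refed library 3. The smallest p belonged to Mrpl11, Mrps34 and Mrps28, a small subunit protein, with log2 fold changes of 0.25, 0.43 and 0.28 (adjusted p = 0.467, 0.515 and 0.557). Bounds ran from -0.48 (Mrpl14) to 0.83 (Mrps34), and 61 of 78 intervals lay within 0.5 of 0. In the authors' deposited tables of the diet comparisons all 78 members were listed, and 0 in fasted and 0 in refed livers had a Benjamini-Hochberg value under 0.05. The lowest such value in the authors' deposited table was 0.37 for fasted and 0.477 for refed livers.

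The third question was whether the diet effect differed between feeding states, which is the same as whether the refeeding effect differed between diets. In this interaction 0 of 78 members passed by edgeR, DESeq2 or limma-voom, and 0% of all tested genes passed by edgeR. At an unadjusted p under 0.05 there were 2 members, against 6.22% of all tested genes. The medians were 0.03 for the large and 0.07 for the small subunit, against -0.02 over all tested genes, and -0.08 and -0.06 without both refed libraries numbered 4. Leaving out 1 library gave -0.04 to 0.12 and -0.02 to 0.12, with values below 0 without control refed library 4 or low isoleucine refed library 4. The smallest p belonged to Mrpl27, the counterpart of bacterial L27, Mrpl45, and Mrpl44, a protein with an RNase III-like fold. Their differences were 0.38, 0.28 and 0.30, with adjusted p = 0.796, 0.802 and 0.815. Mrpl44 read 15.2, 15.05, 13.99 and 13.8 CPM in fasted control and 13.00, 13.02, 12.5 and 13.4 CPM in fasted low isoleucine livers, then 16.9, 15.3, 14.1 and 12.9 CPM and 16.9, 16.6, 13.97 and 17.7 CPM after refeeding. Its lowest group was low isoleucine fasted, and that group overlapped control refed library 4. The members counted as rising on 1 diet alone are therefore not shown to differ between diets.

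**Figure D4:**
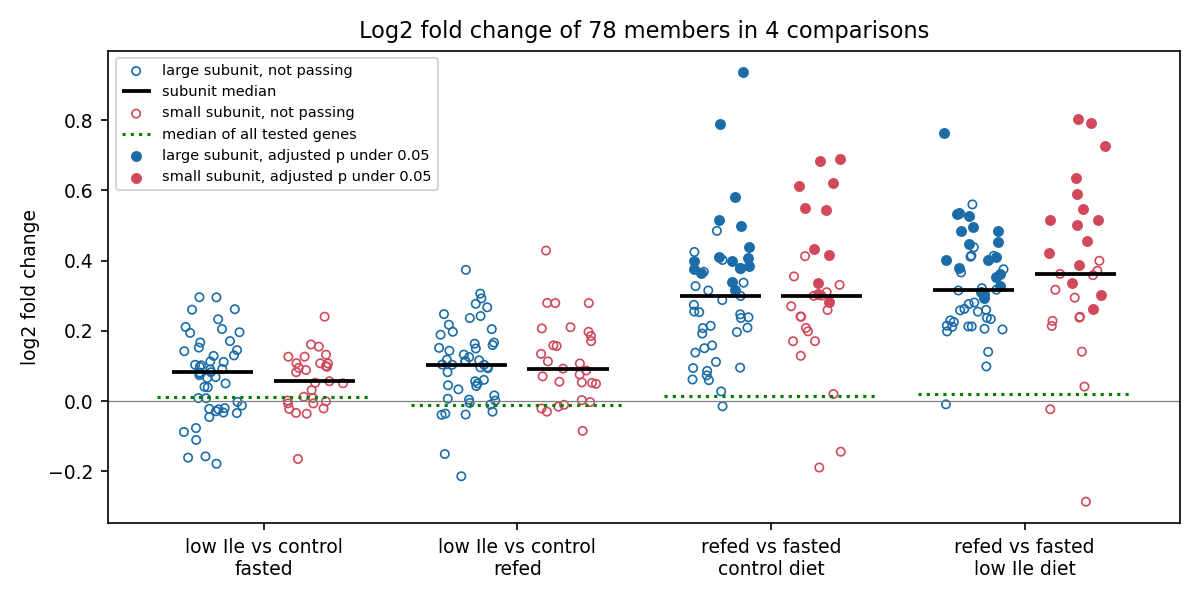
Log2 fold change of each member in the diet comparisons (low isoleucine minus control) and the refeeding comparisons (refed minus fasted). Circles are genes, filled where the adjusted p was under 0.05, black lines are subunit medians and green dotted lines the median of all 14920 tested genes; subunit medians are 0.06 to 0.10 between diets and 0.30 to 0.36 between feeding states.

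Levels per kilobase of merged exon spanned 26.0-fold between members. The highest mean levels over the 16 libraries were 40.2 CPM per kb for Mrpl12, 28.1 for Mrpl18 (the counterpart of bacterial L18) and 27.1 for Mrps21. The lowest were 1.55 for Mrpl23, 1.92 for Mrpl57 and 2.13 for Mrps9. Dividing by the longest coding transcript instead gave 10.3 for Mrpl23, 8.65 for Mrps9 and 41.1 for Mrps21, so these ranks depend on the length used, and Mrpl23 also has a pseudogene copy with counts. The median level was 10.0 CPM per kb for the large and 6.41 for the small subunit. Across the 78 members the level per kb had a Spearman rho of -0.03 with the refeeding value on the control diet and -0.04 with that under low isoleucine, a description over genes of the same libraries.

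Other genes of the mitochondrial translation system were read against the 8.91% of all tested genes that rose on the control diet and the 9.6% on the low isoleucine diet, with no test between lists. Of 5 ribosomal proteins under other names, Chchd1 rose on both diets (0.38 and 0.39), and Dap3 rose by 0.38 on the low isoleucine diet, with a value of -0.03 on the control diet. Of 28 ribosome assembly genes 4 rose on the control (14.3%) and 6 on the low isoleucine diet (21.4%), and 0 fell. Mrm3, a methyltransferase of the mitochondrial large rRNA, went from 3.89 ± 0.652 to 6.98 ± 0.287 CPM on the control diet and from 3.89 ± 0.572 to 7.80 ± 1.12 CPM on the low isoleucine diet (SD, n = 4). It rose by 0.84 (adjusted p = 0.00126) and 1.00 (adjusted p = 0.000221). Eral1, a chaperone of the small subunit rRNA, Noa1, a GTPase, and Rpusd4, a pseudouridine synthase, also rose on both diets. On the low isoleucine diet Dhx30 and Mtg1 rose too.

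Of 15 translation factors 2 rose on each diet (13.3%): Slirp, a partner of Lrpprc in mitochondrial mRNA stability, on both (0.39 and 0.48), Mtrf1l, a release factor, on the control diet (0.58), and Tsfm, an elongation factor, on the low isoleucine diet (0.52). Of 17 mitochondrial tRNA synthetases 5 rose on the control diet (29.4%) and 4 with low isoleucine (23.5%), and 0 fell, with Mars2, Tars2 and Ears2 among both. Of the 13 mRNAs encoded by mitochondrial DNA 0 passed on the control diet. On the low isoleucine diet mt-Co2 rose and mt-Nd2 and mt-Atp8 fell; these libraries were enriched for poly-A RNA. Of 73 nuclear subunits of the respiratory chain and ATP synthase 1 rose on the control and 3 on the low isoleucine diet (medians 0.09 and 0.20), and 0 fell. Values were above 0 for 61 of these 73 on the control and 70 on the low isoleucine diet. When both refed libraries numbered 4 were left out, 3 of these 73 rose on the control and 0 on the low isoleucine diet (medians 0.16 and 0.09). In that fit mt-Atp8 and Mtg1 did not pass. Gadd45gip1, a further ribosomal protein, then rose on the control diet, and Taco1, of the translation factors, on the low isoleucine diet.

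The 79 tested cytosolic ribosomal proteins, which build the ribosome of the cytosol, had 0 members passing on refeeding on either diet, with medians of 0.13 and 0.14. Their refeeding values were above 0 for 75 on the control and 76 on the low isoleucine diet, against 51.3% and 52.0% of all tested genes. With both refed libraries numbered 4 left out, Rpl12, Rpl38 and Rps27l rose on the control diet, with list medians of 0.19 and 0.01. Between diets 0 of 79 passed, and all 79 values were above 0 in fasted and in refed livers, with a median of 0.32 in each. Their summed level was highest in low isoleucine refed library 4, at 18375 CPM, with 12376 to 14149 CPM in the others of its group. Control refed library 4 was the lowest refed library, at 10674 CPM, with 11819 to 12910 CPM in the others of its group. Diet values of this list without both libraries are not given here. The subunits of the mitochondrial ribosome had medians of 0.06 to 0.10 between diets. Without both libraries these were -0.02 and 0.01 in refed livers.

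Regulators of mitochondrial gene expression did not move in 1 direction. Of 17 such genes 3 rose and 5 fell on the control diet, where 8.91% of all tested genes rose and 8.2% fell. On the low isoleucine diet 1 rose and 8 fell, where 9.6% of all tested genes rose and 11.8% fell. After leaving out the refed libraries numbered 4, 4 rose and 4 fell on the control diet, and 0 rose and 7 fell on the low isoleucine diet, where Pprc1 did not pass. Ppargc1a, a coactivator of mitochondrial biogenesis known to be induced by fasting in liver, went from 17.2 ± 7.53 to 5.02 ± 2.05 CPM on the control diet and from 16.3 ± 5.21 to 4.64 ± 1.14 CPM on the low isoleucine diet (SD, n = 4). Its log2 fold changes were -1.76 (adjusted p = 0.00156) and -1.81 (adjusted p = 0.00102). Its relative Ppargc1b fell by 1.85 and 1.70 on the log2 scale, and Tfb2m and Polg fell on both diets. Pprc1, the third of these coactivators, rose on both diets, by 0.88 (adjusted p = 0.00986) and 0.67 (adjusted p = 0.032). Nrf1, which binds the NRF1 motif, rose by 0.67 on the control diet (adjusted p = 0.00861) and had a value of 0.34 on the low isoleucine diet (adjusted p = 0.145). Gabpa, the DNA-binding part of GABP, and Yy1 fell by 0.49 and 0.59 on the low isoleucine diet, with values of -0.30 and -0.20 on the control diet that did not pass. Gabpb1, another part of GABP, rose by 0.53 on the control diet (adjusted p = 0.0172, edgeR) and did not pass on the low isoleucine diet. The parts of GABP thus did not move in 1 direction. None of the genes of these 8 lists passed between diets in fasted or in refed livers.

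**Figure D5:**
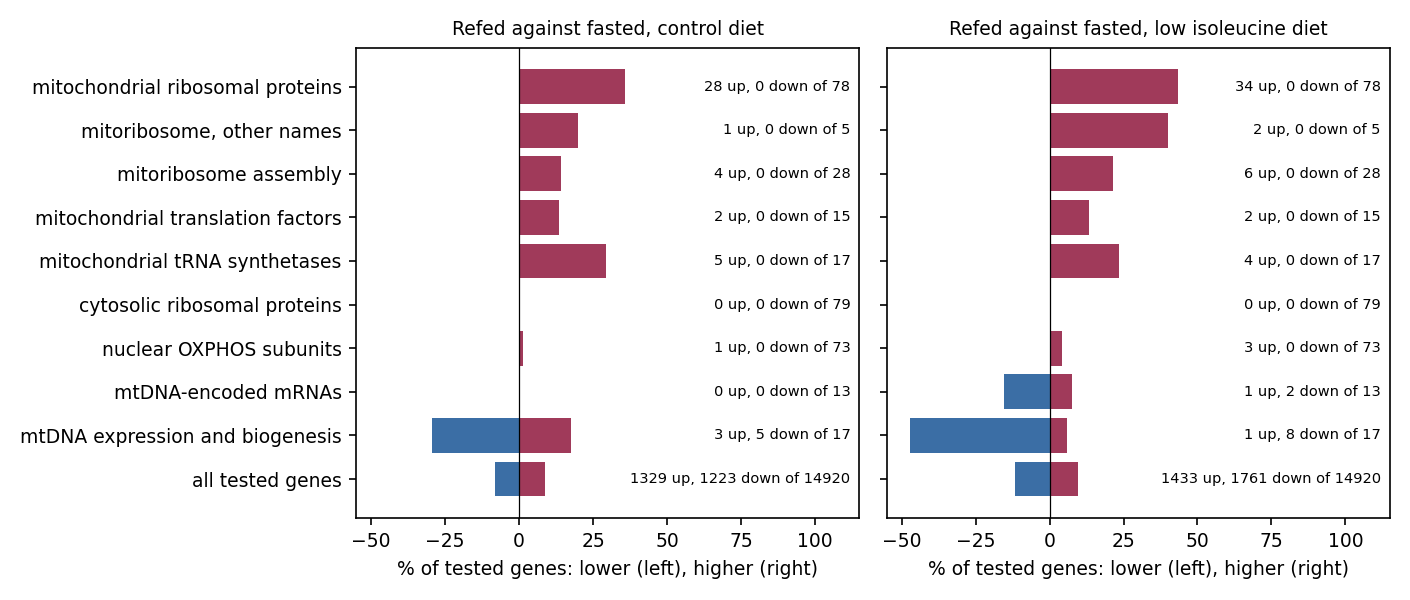
Percent of tested genes of each list that passed the test and were higher (to the right) or lower (to the left) in refed than in fasted livers, for each diet, with counts. The mitochondrial ribosomal proteins have 28 and 34 of 78 genes higher and 0 lower, the cytosolic ribosomal proteins 0 of 79, and the biogenesis regulators 5 and 8 of 17 genes lower.

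Markers of liver cell types were measured in the same libraries. Of 8 hepatocyte markers 1, Pck1, which encodes a fasting-induced enzyme of gluconeogenesis, fell on refeeding on each diet. Summed endothelial markers ran from 152 to 236 CPM in control fasted, 148 to 230.1 in low isoleucine fasted, 104 to 261 in control refed and 111 to 197 in refed livers on low isoleucine. Control refed library 4 had the lowest TMM-normalised sum of the members among the refed libraries, with the largest TMM factor of all 16 (1.207). It was the highest of all 16 for endothelial (261 CPM), Kupffer cell (455 CPM), stellate cell (580.5 CPM), lymphocyte (27.6 CPM) and neutrophil markers (5.95 CPM). None of 8 endothelial and 12 Kupffer cell markers passed on refeeding on either diet. Of 8 stellate cell markers Lrat rose and Reln fell on the control diet and Hhip fell on the low isoleucine diet. Of 5 erythroid markers Hbb-bs and Hbb-bt fell on the low isoleucine diet. Summed erythroid markers were 636 CPM in low isoleucine fasted library 1 and 246 to 359 CPM in the others of that group. None of 5 cholangiocyte, 9 tested lymphocyte and 3 tested neutrophil markers passed on refeeding. Once the refed libraries numbered 4 were left out, Ass1, Cps1 and Tat of the hepatocyte list, Oit3 and Stab2 of the endothelial list and Dcn of the stellate cell list fell as well on the control diet, while Lrat and Hhip did not pass. Between diets in fasted livers Hbb-bs was higher (1.00, adjusted p = 0.0275, edgeR) and Cd4 of the lymphocyte list lower (-1.76, adjusted p = 0.0287, edgeR) with low isoleucine. Kupffer cell markers had values below 0 for 11 of 12 in fasted livers (median -0.57) and 12 of 12 in refed livers (median -0.42), and none passed. No marker was at 0 in every library, and the part of these markers in the values of the ribosomal genes was not tested.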

How the data were processed

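Poly-A enriched, stranded libraries of 16 livers were sequenced, per the labels' protocols, and lanes were merged before expression was estimated. Per the file name and values, the authors deposited RSEM expected counts, 10.2% of them not whole. Not given in the sources used here: aligner, RSEM and strand settings, genome build and annotation. Per the submitters' processing notes, edgeR, limma and R 3.5.3 were used, without their roles. The authors' deposited diet tables hold log2 values (fold change and mean CPM), a score (F) and raw and adjusted p-values, per the file headers.

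Rounded expected counts were taken into edgeR 4.0.16 (R 4.3.3), with DESeq2 1.42.0 and limma 3.58.1 for alternatives. Of 51912 identifiers 51633 had a symbol. The filter was filterByExpr with a count of 10 and a total of 15, and the scaling TMM. Contrasts of the 4 group means were tested in a robust quasi-likelihood fit of all 16 libraries, adjusted over 14920 genes at 0.05. SEs are the absolute log2 fold change over the square root of F. Positions and exon lengths come from GENCODE M21. Of 78 members 36 (46.2%) overlap a gene on the other strand there, against 42.1% of tested protein-coding genes. Among the 36 are Mrpl19, Mrpl47, Mrpl36, Mrps18b, Mrps22, Mrps27 and Mrps34. Without a stated strand setting, reads of overlapping genes cannot be told apart. The method was tested on simulated counts.

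The members and all lists were chosen with earlier results of these data known. The text names up to 8 passing members per direction and contrast, the 3 with the smallest p where none passed, the 3 highest and lowest per kilobase, 11 fixed members and up to 5 passing genes of each other list. Further members are named in counts. Alternatives were RLE, upper-quartile or no scaling factors, other filters, DESeq2, limma-voom, only the compared groups, a non-robust fit, a replicate block, libraries without mitochondrial, Mup and Alb transcripts, coding transcript length, and each library left out. Subunits by structure and leaving out both refed libraries numbered 4 were added after seeing the data. Replicates were numbered by marks (RL, R, L and N) that the labels repeat in each group and do not explain. Counts differed beyond sampling noise in all 120 pairs of libraries (chi-square per degree of freedom at least 32.3).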

Additional observations from a re-analysis of the deposited data

Results flagged for a closer look

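Within the 4 libraries of a group, 1 library stood far from the other 3 in 4 of 136 sets of values examined, where chance flags about 1 in 20. Mrpl15 read 59.0 CPM in control fasted library 3, with the others between 48.9 and 50.2 CPM. Mrpl18 read 53.3 CPM in low isoleucine refed library 4, with the others between 44.0 and 45.3 CPM. Mrpl47 read 14.0 CPM in low isoleucine fasted library 3, with the others between 16.9 and 17.3 CPM. Mrpl58 read 18.1 CPM in control refed library 1, with the others between 16.8 and 16.9 CPM.

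Signal also appeared in genes outside the comparisons. The pseudogene Mrpl23-ps1 reached an expected count of 380.84, with a median of 219.175 over the libraries. Mrpl48-ps reached 31.94 and Mrps36-ps2 reached 17.83. Whether these counts share reads with Mrpl23, Mrpl48 and Mrps36 was not tested.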

How the results depend on the processing

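On the control diet 28 members rose on refeeding, and the count was 18 without a filter on low counts, 17 with only the compared groups in the fit and 24 to 41 under the other settings. On the low isoleucine diet 34 rose, with 23 without a filter and 48 with library size alone as the ends. Leaving out 1 library gave 17 to 31 on the control diet, the 17 without control fasted library 1, and 23 to 35 on the low isoleucine diet; without low isoleucine fasted library 2, 28 members rose and 1 fell there. Under all 29 settings 14 members passed on the control diet and 19 with low isoleucine. With library size alone the small subunit medians on refeeding were 0.42 (control) and 0.48 (low isoleucine), with medians of all tested genes at 0.14 and 0.13, and 71.7% and 64.5% of all called genes were higher, against 52.1% and 44.9% with TMM. Without both refed libraries numbered 4 the large subunit median between diets in refed livers was -0.023, and the interaction medians -0.081 (large) and -0.063 (small), against 0.029 and 0.072 with all libraries. The counts of 0 between diets and for the interaction held under every setting run. The causes were not tested.

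Values that changed sign had not passed in any fit. Between fasted diets Mrps18c read 0.0030 with RLE factors, 0.0083 with library size alone, 0.00069 without a filter and 0.0037 with DESeq2. In the interaction Mrps30 read -0.0070 with RLE factors, -0.0063 with DESeq2 and -0.0033 without both refed libraries numbered 4. Without those libraries the diet values in refed livers were -0.061 for Mrpl12, -0.11 for Mrpl41, -0.16 for Mrps12 and -0.059 for Mrps18a. The interaction values were then -0.18 for Mrpl12, -0.070 for Mrpl41, -0.049 for Mrpl58, -0.23 for Mrps12, -0.15 for Mrps18a and -0.034 for Mrps35. Leaving out 1 library, interaction values ran from -0.069 to 0.29 for Mrpl12, -0.045 to 0.12 for Mrpl58, -0.13 to 0.18 for Mrps12, -0.082 to 0.11 for Mrps18a, -0.030 to 0.16 for Mrps18c, -0.097 to 0.099 for Mrps30 and -0.024 to 0.13 for Mrps35. Diet values in fasted livers ran from -0.097 to 0.023 for Mrpl41, -0.0052 to 0.16 for Mrps12, -0.032 to 0.12 for Mrps18b, -0.086 to 0.11 for Mrps18c and -0.046 to 0.15 for Mrps30. In refed livers they ran from -0.017 to 0.21 for Mrpl41, -0.044 to 0.26 for Mrps12 and -0.0083 to 0.12 for Mrps30. The refeeding value of Mrpl12 on the control diet ran from -0.033 to 0.27.

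Same-numbered libraries, by the order of the marks in the labels, formed 24 pairs. Correlations of their deviations from the group means ran from -0.325 to 0.323, with 8 over 0.1. Their mean was 0.0179, against -0.00533 for the other pairs between groups. These values cannot tell whether libraries with the same mark were handled together. With the replicate block 24 members rose on the control diet and 32 with low isoleucine, and 0 passed between diets or for the interaction.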

Other observations

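Start sites of 33 of 78 members (42.3%) lay within 1000 bases of the start of a protein-coding gene on the other strand in GENCODE M21, against 15.5% of 12943 tested protein-coding genes. Of the 27 tested partner genes that are not members themselves 4 rose and 1 fell on refeeding on the control diet (median 0.15), against 8.91% and 8.2% of all tested genes, and 4 rose and 2 fell on the low isoleucine diet (median 0.20), against 9.6% and 11.8%. Mrpl46 and Mrps11 are such a pair with each other, with starts 412 bases apart; Mrpl46 rose on both diets, while Mrps11 had values of 0.30 and 0.40 that did not pass. Ptcd2, whose start lies 81 bases from that of Mrps27, rose by 0.62 (adjusted p = 0.00105, edgeR) and 0.47 (adjusted p = 0.00527, edgeR). Gga3, beside Mrps7, rose by 0.87 and 0.54, and Mitd1, beside Mrpl30, which passed on neither diet, by 0.86 and 0.54. Wdfy1 fell on both diets (-0.47 and -0.52) beside Mrpl44, which rose on the low isoleucine diet. Eme2 passed upward on the control diet alone, and Mtbp upward and Twnk downward on the low isoleucine diet alone. Merged exon length had a median of 2394 bases over the members and 4042 over all tested genes. The 300-base promoter windows of the members had a median GC content of 58.7%, against 52.7% over all windows.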
